A study of Mus musculus with 6 samples.

Results

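The histone genes of D10 T cells were examined in 6 libraries of poly(A)+ RNA, 3 from cold-acclimated and 3 from non-acclimated T cells. D10 is described as a cloned line of mouse CD4+ helper T cells that recognizes a conalbumin peptide. All 6 libraries are thus labelled as 1 clone and not as separate animals. Cold-acclimated T cells had been kept at 26°C for 24 h, non-acclimated T cells at 37°C for the same 24 h, and no gene was altered in either group. The comparison asks which transcripts change when T cells regain motility in the cold. Histone genes were taken by name. They are the rows of the deposited table whose symbol starts with H1f, H2ac, H2bc, H3c or H4c followed by a digit, together with H2ax, H2az1, H2az2, H3f3a, H3f3b and Macroh2a1. This gave 79 of 41079 listed genes: 68 replication-dependent genes, 10 replacement genes and H2ax.

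Histones package DNA into nucleosomes: H2A, H2B, H3 and H4 form the core particle, and the linker histone H1 binds the DNA that enters and leaves it. Replication-dependent histone genes stand in clusters and are transcribed mainly in S phase, when new DNA has to be packaged. Their mRNA does not end in a poly(A) tail but in a short stem-loop, which is bound by the stem-loop binding protein Slbp. Replacement histones are made from single genes throughout the cell cycle and in resting cells, end in a poly(A) tail, and are placed into chromatin by chaperones of their own. Since poly(A)+ RNA was selected here, the values of the replication-dependent genes describe the fraction of their RNA that passed this selection.

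The unit of the deposited values is TPM, an abundance that is read counts divided by gene length and scaled to a common library total. The read numbers recovered from the TPM ranged from 16899628 to 31290854 per library. Libraries with the same replicate number deviated together, and replicate 3 stood apart in both conditions. Its Cd4 level was 310 TPM at 37°C and 328 TPM at 26°C, whereas the other 4 libraries held between 0.0351 and 1.30 TPM of Cd4, which defines the labelled cell type. The summed TPM of the 8 listed T cell markers was 2594 to 4201 at 37°C and 3072 to 3928 at 26°C, carried mainly by Cd3g, Cd3e and Gata3. Trac was 15 and 12.8 TPM in replicate 2 against 129 to 207 TPM in the other libraries, and Trbc1 was at 0 in 5 of 6 libraries. Cd4 and Trac thus differed between libraries labelled as the same clone, and whether all libraries hold that clone was not tested. The summed B cell markers reached at most 1.11 TPM and macrophage markers 21.2 TPM, with Ms4a1 and Cd14 at 0 in every library. Among erythroid markers, Hba-a1 was at 60.8 to 485 TPM, whereas Hbb-bs and Hbb-bt were at 0. Across the 12227 genes tested, the median log2 fold change was -0.34 on the deposited scale and 0.02 after median-of-ratios scaling, which turned 321 upregulated and 1954 downregulated genes into 802 and 1075. Results for histone genes are therefore also given relative to this median and without replicate 3.

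To show what separates both classes in sequence, the 150 genomic bases after each stop codon were searched on the coding strand for the 16 bases of the histone stem-loop, allowing any base at its variable positions. It was found in 63 of 68 replication-dependent genes, in H2ax and in 0 of 10 replacement genes, and in 0.325% of 21530 mouse genes overall. The 64 histone genes with a match held 9 different versions of these 16 bases, and 39 of them shared 1 version. The examples below are the genes on which the results turn, with the stem-loop in capitals and 7 bases on each side, read 5′ to 3′ from GRCm39. They lie at chr13:23923488-23923517 on the plus strand for H1f2, chr13:23868623-23868652 on the plus strand for H2bc4, chr13:21937545-21937574 on the minus strand for H2ac15, chr13:23929023-23929052 on the minus strand for H3c3 and chr13:22225129-22225158 on the minus strand for H4c9.
H1f2: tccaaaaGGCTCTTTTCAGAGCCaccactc
H2bc4: ttccaaaGGCTCTTTTCAGAGCCacccact
H2ac15: caccaaaGGCTCTTTTCAGAGCCacctaca
H3c3: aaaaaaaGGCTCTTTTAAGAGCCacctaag
H4c9: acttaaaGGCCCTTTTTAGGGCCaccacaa
The match is a description of the DNA, and it does not say where the sequenced molecules ended. Of the 64 rows with a stem-loop, 57 ended within 50 bases of it, with a median of 5 bases past it. Reads from the body of a longer transcript would still count in such a row, and those from its extension would not. In 7 rows the deposited gene ran further: the H2bc4 row, which includes introns, ended 8160 bases past the stem-loop. For 29 of the 64 genes GENCODE vM39 lists a coding transcript that ends more than 50 bases past it, among them H1f2, whose transcript runs 840 bases further than the stem-loop. The 5 replication-dependent genes without a match were H2ac22, H2bc21, H2bc22, H2bc23 and H2bc24, named here because their number is small.

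Replacement histones supplied nearly all histone transcripts measured, and the replication-dependent genes were at the edge of detection. The summed TPM of the 10 replacement genes was 2611, 4232 and 3753 in non-acclimated and 2709, 3106 and 4449 in cold-acclimated replicates 1 to 3. That of the 68 replication-dependent genes was 51.9, 53.7 and 99.3 at 37°C against 44.9, 27.9 and 135.7 at 26°C. The replication-dependent sum was thus between 0.900% and 3.05% of the replacement sum in each library. It rested on 234 to 707 reads per library, and 46 of the 68 genes had under 10 reads in every library. At such depth a single read is a visible step, worth 0.166 to 0.292 TPM for a gene of 500 bases depending on the library. Listed at 0 in all 6 libraries were 15 members, namely 11 replication-dependent genes, the germ cell linker histones H1f7, H1f8 and H1f9, and H2ax. Counts of 0 in these rows allow up to 0.0469 to 1.17 TPM by the limit of 3 reads, depending on row length and library. Row length is here the genomic span, so the limit is too low for a row that includes introns. The lowest value is that of H1f8, which spans 5312 bases. H2ax, the variant phosphorylated at DNA breaks, lies at chr9:44246012-44247374 inside a row of the same strand, Dpagt1, so its reads may not have been assigned, which was not tested. The same limit holds for H2ac1 and H2ac25, which overlap Gm33516 and Trim17 on the same strand.

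A mean of 1 TPM or more, the condition for testing, was reached by 24 members, 18 replication-dependent and 6 replacement genes. In limma on log2(TPM + 1), a gene was called where its log2 fold change was 1 or more in either direction and its p, adjusted by Benjamini-Hochberg, was under 0.05. By this rule 1 of the 24 was upregulated and 1 was downregulated. This is 4.17% of the members in each direction, beside 2.63% upregulated and 16% downregulated among all genes tested. Both called genes encode linker histones: H1f2 was upregulated and H1f0 was downregulated in cold-acclimated T cells. The conditions did not overlap for 3 members that were higher at 26°C (H1f2, H2bc4 and H3f3b) and for 3 that were lower (H1f0, H2ac15 and H2bc21), where 9.69% and 31.4% of all genes did so. Of these, H2bc4 and H2ac15 reached the level for testing only through the condition in which they were higher, so nothing is read from these counts. In bulk RNA, fewer cells of a kind and less RNA per cell cannot be told apart.

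**Figure D1:**
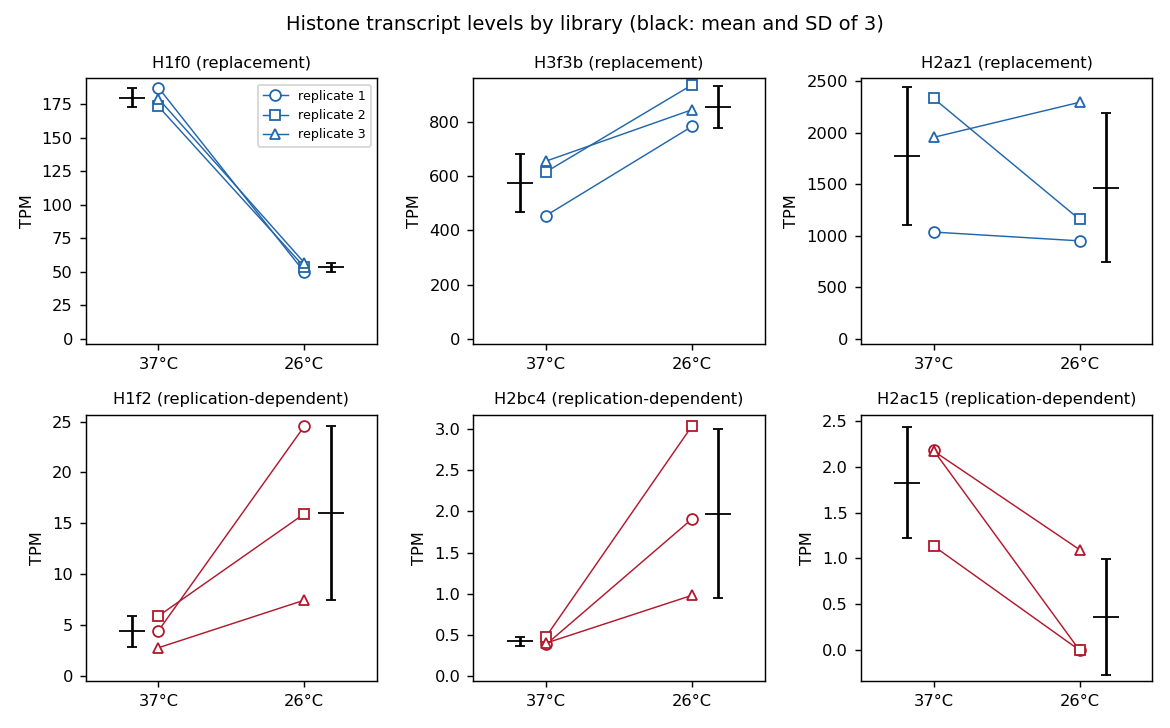
TPM (vertical axis, with 0 shown) of 6 histone genes in the 3 libraries at 37°C and the 3 at 26°C, with lines joining libraries of the same replicate number and black bars giving the mean and SD. H1f0 was between 173 and 187 TPM at 37°C and between 49.9 and 56.8 TPM at 26°C, while the lines of H2az1 cross.

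H1f0, the replacement linker histone known from resting and differentiated cells, was lower in cold-acclimated T cells by a similar amount in each replicate. It lies at chr15:78912412-78914704 on the plus strand. Its level was 187, 173 and 179 TPM at 37°C and 49.9, 53.6 and 56.8 TPM at 26°C in replicates 1 to 3. All cold-acclimated libraries lay far below all non-acclimated ones. The mean was 180 ± 7.04 TPM (SD, n = 3) at 37°C and 53.4 ± 3.47 TPM (SD, n = 3) at 26°C, which is 3.37-fold lower. The fitted log2 fold change was -1.73 with a standard error of 0.20 (limma, adjusted p = 0.00675), or -1.40 relative to the median gene. With 989 to 4937 reads per library, H1f0 was measured more deeply than any replication-dependent gene, and it stayed downregulated in each of the 6 fits that left out 1 library.

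H1f2, a replication-dependent linker histone of the chromosome 13 cluster at chr13:23922790-23923514 on the plus strand, went the other way. Its level was 4.43, 5.87 and 2.75 TPM at 37°C and 24.6, 15.9 and 7.43 TPM at 26°C, from 22, 35 and 24 reads against 154, 104 and 55 reads. Every cold-acclimated library lay above every non-acclimated one, although replicate 3 rose least in TPM. The mean rose from 4.35 ± 1.56 to 16 ± 8.56 TPM (SD, n = 3), a 3.67-fold difference, and the log2 fold change was 1.57 with a standard error of 0.45 (limma, adjusted p = 0.0455). This call was near the threshold: it was lost without non-acclimated replicate 1, 2 or 3 or cold-acclimated replicate 1 or 2, with adjusted p = 0.114, 0.0907, 0.102, 0.143 and 0.133 in that order. It was lost with voom on the recovered reads (adjusted p = 0.0566) and without a filter on low values (adjusted p = 0.109), and it passed with adjusted p = 0.0105 when the replicate number was a term in the fit. No 150-base window of the H1f2 row occurred elsewhere in GRCm39 as an exact match. Shorter or mismatched reads were not checked.

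Because H1f0 fell and H1f2 rose, the make-up of linker histone transcripts in this poly(A)+ RNA differed between the conditions. Of the summed H1 TPM, H1f0 supplied 96.0%, 95.6% and 97.2% at 37°C and 65.9%, 76.6% and 83.4% at 26°C. The share of H1f2 was 2.27%, 3.24% and 1.49% against 32.4%, 22.8% and 10.9%. The groups did not overlap in either share. For H1f0 the means were 96.2% ± 0.838 and 75.3% ± 8.84 (SD, n = 3, exact permutation test, two-sided, p = 0.1, the smallest p that 3 against 3 allows). H1f0 and H1f2 had already separated the groups and been called in these same libraries, so this test adds no support. The summed H1 level was 181 to 195 TPM at 37°C and 68.1 to 75.7 TPM at 26°C. The remaining H1 genes were low. H1f4 held 2.80, 1.40 and 1.38 TPM at 37°C against 1.03, 0.284 and 1.63 TPM at 26°C, with a log2 fold change of -0.55 (adjusted p = 0.335). H1f3 held at most 1.51 TPM and was not tested, and H1f10, a replacement linker histone, had 1 read in all.

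**Figure D2:**
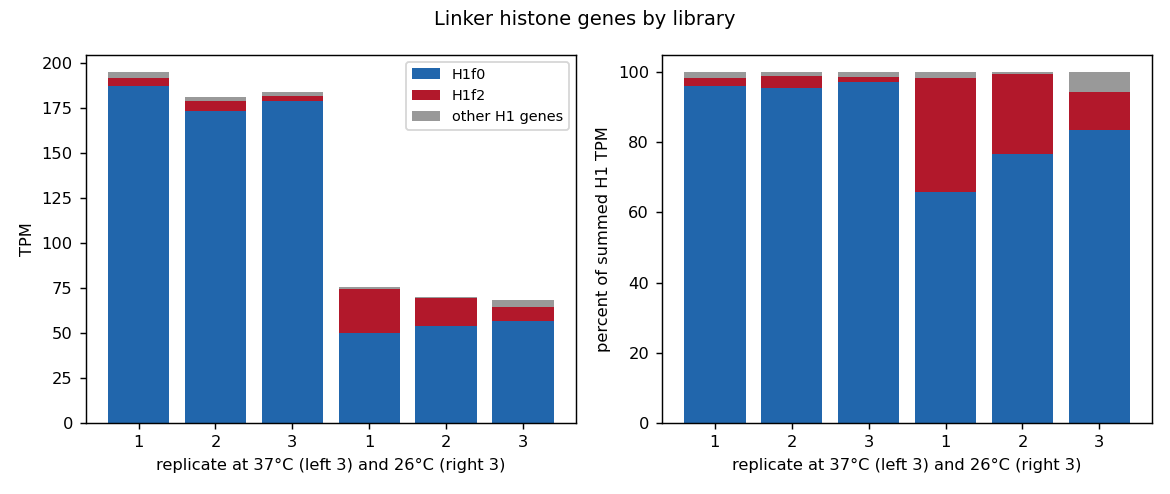
Stacked bars of the linker histone genes in each library, as TPM on the left and as percent of the summed H1 TPM on the right, with H1f0, H1f2 and all other H1 genes in separate colours. H1f0 shrank from 95.6% or more of the summed H1 TPM in this poly(A)+ RNA at 37°C to between 65.9% and 83.4% at 26°C.

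The promoter sequences of the 2 called genes are shown for context, and promoter activity was not measured. The 150 bases before each start are given below from RefSeq (GRCm38.p6) with matches to 4 motifs known from histone promoters in capitals. These were the CCAAT box, the TATA box spelled TATAAA, the H1 box spelled AAACACA and the octamer ATGCAAAT. They were searched on both strands, and none of them contains another. The H1f0 stretch lies at chr15:79028062-79028211 and the H1f2 stretch at chr13:23738657-23738806 of that build, both on the plus strand.
H1f0: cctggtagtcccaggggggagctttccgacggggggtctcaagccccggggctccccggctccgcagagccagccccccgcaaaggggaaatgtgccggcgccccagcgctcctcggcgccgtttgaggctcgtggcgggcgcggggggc
H1f2: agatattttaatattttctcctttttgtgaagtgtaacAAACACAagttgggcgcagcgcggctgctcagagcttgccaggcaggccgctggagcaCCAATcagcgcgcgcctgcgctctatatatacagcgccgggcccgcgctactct
Within 250 bases before the start, CCAAT stood in 83.1% of 59 replication-dependent, 55.6% of 9 replacement and 33.8% of 32851 mouse promoters. TATAAA stood in 47.5%, 11.1% and 12.4%, AAACACA in 15.3%, 11.1% and 6.25%, and ATGCAAAT in 22.0%, 11.1% and 1.6% of the same sets. Promoters were found for 67 members by symbol. These letters are a description and say nothing of which factors were bound.

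Among the H3 genes, the replacement variant was encoded by H3f3a and H3f3b, whose proteins are the same. H3f3b, at chr11:115912787-115921313 on the minus strand, held 454, 615 and 655 TPM at 37°C and 782, 935 and 844 TPM at 26°C. All cold-acclimated libraries exceeded all non-acclimated ones, with means of 575 ± 106 and 854 ± 76.9 TPM (SD, n = 3). The log2 fold change of 0.58 with a standard error of 0.24 did not pass the test (limma, adjusted p = 0.115). Relative to the median gene it was 0.92, and after median-of-ratios scaling the log2 fold change was 0.98 with adjusted p = 0.0306, still under the size set for a call. H3f3a, at chr1:180630125-180641127 on the minus strand, held 688, 933 and 725 TPM against 784, 855 and 1015 TPM, which overlap, with a log2 fold change of 0.18 (adjusted p = 0.616). The ratio of H3f3a to H3f3b was 1.51, 1.52 and 1.11 at 37°C and 1.00, 0.915 and 1.20 at 26°C, and the groups overlapped (exact permutation test, two-sided, p = 0.2). Together the 2 genes gave 1142 to 1549 TPM at 37°C and 1567 to 1859 TPM at 26°C.

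None of the tested replacement H2A genes was called. H2az1, the main gene of the H2A.Z variant found at promoters, had the highest mean of all histone genes, with 1038, 2334 and 1957 TPM at 37°C against 952, 1161 and 2296 TPM at 26°C. Replicates 1 and 2 were lower and replicate 3 was higher at 26°C, the groups overlapped, and the log2 fold change of -0.30 did not pass the test (adjusted p = 0.655). This sign turned after median-of-ratios scaling, to 0.10. H2az2, which encodes a second form of the same variant, held 109, 80.3 and 45.1 TPM against 52.3, 34.7 and 60.6 TPM, with a log2 fold change of -0.60 (adjusted p = 0.279). It was lower at 26°C in replicates 1 and 2 and higher in replicate 3, and without replicate 3 in both conditions it was downregulated (-1.11, adjusted p = 0.0334). Macroh2a1, whose product carries a large macro domain and is known from silenced chromatin, held 136, 95.8 and 192 TPM against 87.7, 67.2 and 176 TPM, with a log2 fold change of -0.42 (adjusted p = 0.504). Each replicate was lower at 26°C for Macroh2a1, and the groups overlapped because replicate 3 was highest in both. In mean TPM the replacement genes were ordered H2az1, H3f3a, H3f3b, Macroh2a1, H1f0 and H2az2, where H3f3a and H3f3b overlapped at 26°C but not at 37°C, and Macroh2a1, H1f0 and H2az2 were not in this order in every library.

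**Figure D3:**
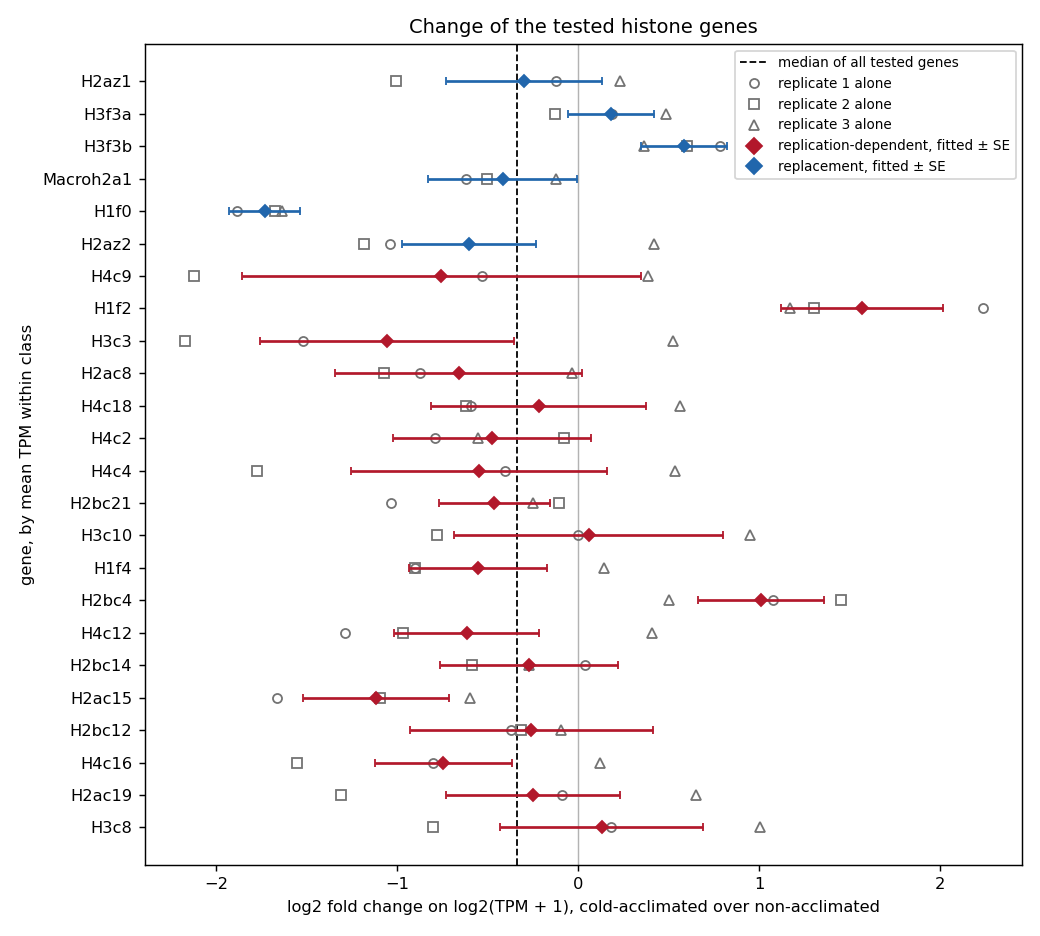
Log2 fold change on log2(TPM + 1), cold-acclimated over non-acclimated, of the 24 tested histone genes, as fitted value with standard error (filled diamonds, red for replication-dependent and blue for replacement genes) and within each replicate number (open symbols). The dashed line is the median of all tested genes at -0.34, and H1f0 at -1.73 and H1f2 at 1.57 are the called genes.

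Apart from H1f2, the replication-dependent genes gave no call. Of the 18 tested, 14 had a log2 fold change below 0 (77.8%, beside 66.5% of all genes), and their median was -0.47 beside -0.34 for all genes. Measured against the all-gene median, 8 lay above and 10 below it. At an unadjusted p under 0.05, 2 were higher (H1f2 and H2bc4) and 1 was lower (H2ac15), that is 11.1% and 5.56% beside 7.75% and 30.0% of all genes. H2bc4 and H2ac15 reached the level for testing only through the condition in which they were higher, so nothing is read from these counts. The median of the 6 replacement genes was -0.36, with 3 on each side of the all-gene median, and after median-of-ratios scaling it was 0.04 against -0.23 for the replication-dependent genes.

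The median of the replication-dependent genes differed in sign between replicate numbers. Within replicates 1, 2 and 3 it was -0.56, -0.85 and 0.40, whereas the median of all genes was -0.32, -0.44 and -0.24. In replicate 2, 16 of the 18 tested genes were lower at 26°C, and in replicate 3, 12 of the 18 were higher. The replacement genes showed the same order with -0.37, -0.76 and 0.30. The number of replication-dependent genes with any read fell from 42 to 32 in replicate 1 and from 46 to 20 in replicate 2, but was 45 and 44 in replicate 3. Replicate 3 changed less overall: 1866 genes were lower and 418 higher by 1 or more on the log2 scale, against 3235 and 973 in replicate 1 and 3769 and 847 in replicate 2. Without cold-acclimated replicate 2 the median of the replication-dependent genes was 0.03, and without cold-acclimated replicate 3 it was -0.89. Leaving out replicate 3 in both conditions added H2bc4 to the upregulated members and H2ac15, H2az2, H3c3, H4c12 and H4c16 to the downregulated ones. In that fit 6 of 24 members were downregulated beside 3088 of 12227 genes, and 2 were upregulated beside 653 genes. H2bc4, H2ac15, H4c12 and H4c16 reached the level for testing only through the condition in which they were higher, so no support is drawn from these calls.

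In summed TPM, H2A, H3 and H4 shared this pattern, and H2B and H1 did not, each through 1 gene. The summed TPM at 26°C divided by that at 37°C was 0.428, 0.179 and 1.27 in replicates 1 to 3 for H2A, 0.330, 0.0698 and 1.56 for H3, and 0.399, 0.195 and 1.31 for H4. For H2B it was 0.599, 1.02 and 1.09, and for the replication-dependent H1 genes 3.30, 2.03 and 2.18. Summed over all 68 genes the ratio was 0.865, 0.521 and 1.37, but without H1f2 and H4c9 it was 0.402, 0.280 and 1.34. These 2 genes supplied 19.0%, 32.9% and 40.8% of the replication-dependent TPM at 37°C and 62.4%, 63.9% and 42.0% at 26°C. The ratios rest on few reads, for H3 on 29, 43 and 90 reads at 37°C and 11, 3 and 120 reads at 26°C.

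**Figure D4:**
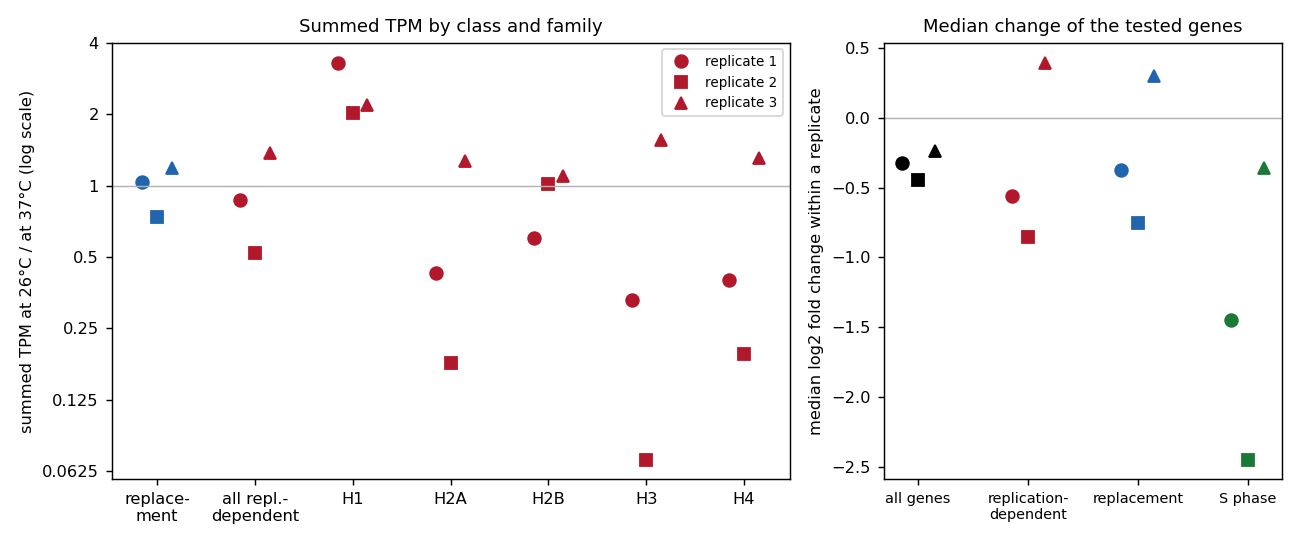
Left, summed TPM at 26°C over that at 37°C (log scale) within each replicate number for the replacement genes (blue), all replication-dependent genes and their 5 families (red). Right, median log2 fold change within each replicate number of all tested genes, the 2 histone classes and the S phase list. For H2A, H3 and H4 replicate 3 lies above 1 and replicates 1 and 2 below it, while all 3 replicates of H1 lie above 1. Most of this H1 sum at 26°C came from H1f2.

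H4c9, at chr13:22225130-22225532 on the minus strand, had the highest mean of the replication-dependent genes. Its TPM was 5.43, 11.8 and 37.7 at 37°C and 3.44, 1.93 and 49.6 TPM at 26°C. The replicate 3 libraries exceeded all others in both conditions, and the log2 fold change of -0.76 carried a standard error of 1.10 (adjusted p = 0.659). Other H4 genes named by level were H4c18, with 0.821 to 6.52 TPM and a log2 fold change of -0.22 (adjusted p = 0.827), which turned to 0.03 after median-of-ratios scaling, and H4c2, with 0.514 to 5.91 TPM and -0.48 (adjusted p = 0.569). Reads of these genes may be shared with copies: 85.6% of the 150-base windows of H4c18, 47.8% of those of H4c2 and 9.45% of those of H4c9 occurred elsewhere in the genome.

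Of the H3 genes, H3c3 held 3.95, 4.56 and 5.37 TPM at 37°C and 0.722, 0.231 and 8.16 TPM at 26°C. It dropped in replicates 1 and 2 and rose in replicate 3, so that the log2 fold change was -1.06 with a standard error of 0.70 (adjusted p = 0.314). Without cold-acclimated replicate 3 it was -1.94 with adjusted p = 0.00766. H3c10 and H3c8 had log2 fold changes of 0.06 and 0.13 with adjusted p = 0.966 and 0.897. Both were 0 or close to it in several libraries and highest in cold-acclimated replicate 3, at 5.22 and 3.39 TPM.

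Of the H2A genes, H2ac15 was the only tested one without overlap between the conditions. It held 2.18, 1.14 and 2.17 TPM at 37°C and 0, 0 and 1.10 TPM at 26°C, with a log2 fold change of -1.12 and a standard error of 0.40 (adjusted p = 0.0848). It reached a mean of 1 TPM through the 37°C libraries alone, so being tested depended on the difference itself, and the fits are given as values without support drawn from them. Adjusted p was 0.0322 with the replicate number as a term, 0.0532 with this term after median-of-ratios scaling, 0.111 with voom and 0.0270 without cold-acclimated replicate 3. No 150-base window of H2ac15 occurred elsewhere in the genome as an exact match. H2ac8 and H2ac19 had log2 fold changes of -0.66 and -0.25 (adjusted p = 0.524 and 0.746), with 66.0% and 98.1% of their windows found elsewhere.

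H2bc4, an H2B gene whose row runs far past the stem-loop, was the one tested replication-dependent core histone gene that was higher at 26°C in all 3 replicates without overlap. It held 0.38, 0.476 and 0.397 TPM at 37°C and 1.91, 3.04 and 0.978 TPM at 26°C, from 6, 9 and 11 reads against 38, 63 and 23 reads. The log2 fold change was 1.01 with a standard error of 0.35 and did not pass the test (adjusted p = 0.0765). It reached a mean of 1 TPM through the 26°C libraries alone, so no support is drawn from adjusted p = 0.0394 with the replicate number as a term or 0.0442 with voom on the recovered reads. H2bc21, which has no stem-loop match, was lower in every cold-acclimated library, at 2.95, 1.53 and 1.74 TPM against 0.925, 1.36 and 1.31 TPM, with a log2 fold change of -0.46 (adjusted p = 0.317). H2bc14 had a log2 fold change of -0.27 (adjusted p = 0.728), and its sign turned without non-acclimated replicate 3 (0.06) or cold-acclimated replicate 2 (0.14).

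Grouped by position and by sequence, the replication-dependent genes gave the following ratios. The 31 genes of the main chromosome 13 cluster had ratios of summed TPM of 1.35, 0.930 and 1.48 in replicates 1 to 3, but 0.431, 0.321 and 1.37 without H1f2. The 23 genes of the distal stretch of chromosome 13, which held H4c9 and H2ac15, had 0.342, 0.169 and 1.32, and the 10 genes of the chromosome 3 cluster 0.610, 0.442 and 1.18. Of 61 replication-dependent rows checked for copies, 17 held no 150-base window that occurs elsewhere, and their ratios without H1f2 were 0.410, 0.0925 and 1.28. The 44 rows that share windows gave 0.399, 0.184 and 1.34. The 57 rows that end within 50 bases of the stem-loop had ratios of 0.918, 0.461 and 1.37, and the 7 that run further past it 0.792, 1.72 and 1.85. These 7 include H2ax, which is not counted as replication-dependent here and was at 0 in every library. H1f2 is among the 57 and held 24.6, 15.9 and 7.43 TPM of their 41.2, 22.6 and 131 TPM at 26°C. H2bc4 is among the 7 and held 1.91, 3.04 and 0.978 TPM of their 2.72, 3.89 and 2.18 TPM at 26°C. Without H1f2 and H2bc4, both groups were lower at 26°C in replicates 1 and 2 and higher in replicate 3. Replicate 3 had a ratio above 1 in each of these groups, whereas the 5 genes without a stem-loop match had 0.273, 0.617 and 0.929.

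The 39 replication-dependent genes with reads that were not tested had mean levels of 0.00799 to 0.909 TPM and at most 13 reads in a library. Only H2bc15 and H4c1 among them did not overlap between the conditions, each at 0 in all cold-acclimated libraries, from 3 and 6 reads in all, too few to give a fold. These 2 are named after their values were seen. Among histone genes outside the naming rule, 7 of 14 listed symbols were in the table and 3 were tested, and none was called. Cenpa, the centromeric H3, held 248, 354 and 208 TPM against 89.1, 44.7 and 206 TPM with a log2 fold change of -1.48 (adjusted p = 0.0813). H3f5 and H2aj had log2 fold changes of 0.82 and -0.08 (adjusted p = 0.191 and 0.900).

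Genes that transcribe and process histone mRNA were called downregulated as often as genes in general. Of 25 listed and tested, 4 were downregulated and 0 upregulated, which is the same 16% as among all genes, with a median log2 fold change of -0.56 beside -0.34. At an unadjusted p under 0.05, 10 were lower and 1 was higher, that is 40.0% lower beside 30.0% of all genes. The 4 were Cpsf2, a subunit of the cleavage complex, with -1.76 (adjusted p = 0.0239), Lsm10 and Lsm11, proteins of the U7 particle that recognizes histone pre-mRNA, with -1.19 and -1.06 (adjusted p = 0.0250 and 0.0451), and Zfp473, a zinc finger protein that binds this particle, with -1.48 (adjusted p = 0.0290). Zfp473 had a mean of 2.92 TPM at 37°C and 0.372 TPM at 26°C. It reached the level for testing only through the 37°C libraries, so no support is drawn from its call. Lsm11 held 9.15, 13.1 and 14.5 TPM at 37°C and 3.74, 5.72 and 6.62 TPM at 26°C, with no overlap and a similar drop in each replicate. Slbp itself held 170, 290 and 343 TPM against 77.7, 60.9 and 266 TPM, and its log2 fold change of -1.24 did not pass the test (adjusted p = 0.147) but did with the replicate number as a term (adjusted p = 0.0328) and without cold-acclimated replicate 3 (adjusted p = 0.00969). Casp8ap2, which works in histone 3′ end formation, had -1.13 (adjusted p = 0.0990, or 0.0289 with that term) and Gon4l -0.98 (adjusted p = 0.0263), just under the size set for a call. Npat, the coactivator of histone gene transcription, differed by 0.18 (adjusted p = 0.615) and held 22.5 to 32.6 TPM at 37°C against 27.8 to 33.7 TPM at 26°C.

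Of 34 histone chaperones and exchange factors, all tested, 2 were downregulated and 0 upregulated, which is 5.88% beside 16% of all genes, and the median log2 fold change of -0.33 was near that of all genes. At an unadjusted p under 0.05, 8 were lower (23.5% beside 30.0%) and 1 was higher. Chaf1a, the large subunit of the chaperone that places new H3 and H4 on replicated DNA, held 101, 147 and 140 TPM at 37°C and 20.5, 13.2 and 59.7 TPM at 26°C, with a log2 fold change of -2.28 (adjusted p = 0.0223). Ssrp1, a subunit of the FACT chaperone, had -1.39 (adjusted p = 0.0324). Chaf1b, another subunit of the chaperone that holds Chaf1a, had -0.57 (adjusted p = 0.365). Asf1b, which hands H3 and H4 on, had -1.94 (adjusted p = 0.0773) and was called with the replicate number as a term (adjusted p = 0.0207). Nasp had -0.06 (adjusted p = 0.956), a sign that turned to 0.33 after median-of-ratios scaling. Srcap and Vps72, which exchange H2A for H2A.Z, had -0.84 and -1.12 (adjusted p = 0.0357 and 0.0518), under the size or over the p set for a call, and Vps72 was called with that term (adjusted p = 0.0156).

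The S phase and proliferation genes moved with the replicate number in the same order as the histone genes, but their median stayed below 0 in each replicate. All 22 were tested, all 22 had a log2 fold change below 0 (beside 66.5% of all genes) and the median was -1.42. Only E2f1 and Uhrf1 were downregulated, with -1.61 and -1.93 (adjusted p = 0.0246 and 0.0498), which is 9.09% beside 16%, and 12 were lower at an unadjusted p under 0.05, which is 54.5% beside 30.0%. Their median within replicates 1, 2 and 3 was -1.45, -2.45 and -0.36. Mcm2, part of the replicative helicase, had -1.50 (adjusted p = 0.0592) and Ccne2, a cyclin of S phase entry, -1.43 (adjusted p = 0.0563). Both were called with the replicate number as a term (adjusted p = 0.0185 and 0.0142). Mki67, a marker of cycling cells, held 230, 235 and 163 TPM against 62.1, 43.1 and 173 TPM, so replicate 3 showed no fall. Pcna, the sliding clamp, had -0.54 (adjusted p = 0.340). The part of these genes in the histone values was not tested.

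These counts for the lists changed with the fit. With the replicate number as a term, 8 of the 25 processing genes, 6 of the 34 chaperones and 13 of the 22 S phase genes were downregulated (32.0%, 17.6% and 59.1%, beside 21.9% of all genes). Without cold-acclimated replicate 3 the numbers were 9, 10 and 19 (36.0%, 29.4% and 86.4%, beside 22.3%). After median-of-ratios scaling they were 2, 1 and 1 (8%, 2.94% and 4.55%, beside 8.79%), with 1 processing gene upregulated, and the medians were -0.17 for the processing genes, 0.06 for the chaperones and -1.04 for the S phase genes. Without any other single library, 7 of the 8 calls among these lists (Cpsf2, Lsm10, Lsm11, Chaf1a, Ssrp1, E2f1 and Uhrf1) were lost, at adjusted p of up to 0.148, and that of Zfp473 was kept only without replicate 3 of either condition.

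Other RNAs without a poly(A) tail were read for comparison. Of 8 listed, 3 reached the level for testing and none was called, with 0 at an unadjusted p under 0.05 in limma and 0 called with voom. Rn7sk, an RNA that holds back transcription elongation, held 13.6, 5.86 and 10.5 TPM at 37°C and 12.5, 24.1 and 5.31 TPM at 26°C, higher only in replicate 2. Rmrp and Rpph1 had log2 fold changes of -0.67 and -0.01 (adjusted p = 0.431 and 0.996). By the types in the deposited table, the summed snRNA rows held 187, 122 and 156 TPM at 37°C and 255, 339 and 265 TPM at 26°C without overlap. The summed snoRNA rows held 1444, 1475 and 2396 TPM against 3974, 5334 and 2341 TPM, which overlap through replicate 3, whereas the replication-dependent histones rose in that replicate.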

How the data were processed

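RNA of D10 T cells was poly(A)-selected and sequenced by the authors from 3 libraries per condition. The authors trimmed reads with Trimmomatic 0.38, aligned them to GRCm39 with HISAT2 2.1.0 and counted them with featureCounts 1.6.3, as their processing notes and methods state, and tested with DESeq2. Which strand setting and annotation release were used is not given in the sources used here. The deposited values are TPM per gene, computed by the authors. Each library sums to 1000000 TPM, so a rise in some genes lowers the others.

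Read numbers were recovered from the steps of the TPM values. All 21195 genes above 0 came out as whole reads within 1e-06 (100%), with totals of 16899628 to 31290854 per library. Limits for a count of 0 use 3 reads and the genomic span of the row, and cover counting error only. Low depth limits the replication-dependent genes. Genes with a mean of at least 1 TPM (12227) were compared on log2(TPM + 1) with limma 3.58.1 in R 4.3.3 (trend, two-sided, Benjamini-Hochberg), so that fold changes of low genes are understated. Genes were called at a log2 fold change of 1 or more in either direction with adjusted p under 0.05. On simulated data for this comparison (12212 genes), 198 of 200 genes changed by 2 on the log2 scale and 6 unchanged genes were called. The changed genes were drawn from levels above those of most replication-dependent histone genes, and no effect of the replicate number was simulated. These numbers therefore do not apply to low genes or to libraries that differ by replicate number. Other values were computed in Python 3.11.15 with scipy 1.17.1.

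Replicate numbers are those of the labels. Same-numbered libraries correlated in their deviations from the group means at 0.48, 0.50 and 0.51 and different numbers at -0.41 to 0.02. The main fit and the permutation tests left this pairing out, so their p-values also carry the differences between replicate numbers. The pairing entered the fits with the replicate number as a term and the values given within each replicate. The labels say that old and new batches were treated as biological replicates but not which library is which, so p-values measure the spread between these libraries. Histone members and gene lists were chosen with earlier results of these data known. Named are the called members, the replacement histones and H2ax, the 3 members with the highest mean TPM of each replication-dependent family, and of each other list the 4 genes with the smallest p plus Slbp, Npat, Casp8ap2, Lsm11, Asf1b, Chaf1a, Chaf1b, Nasp, Mki67 and Pcna. Tried were 13 alternatives, 2 of them chosen after seeing the data. Stem-loops were read from GRCm39 with GENCODE vM39, and promoters from RefSeq. Sequence uniqueness was checked with 150-base windows.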

Additional observations from a re-analysis of the deposited data

How the results depend on the processing

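H1f0 stayed downregulated under all 13 alternatives. The number of downregulated histone genes was 1, became 2 with the replicate number as a term (replicate block) and 6 without replicate 3 in both conditions, and ranged from 1 to 3 when 1 library was left out. The number upregulated was 1, 0 without a filter on low values, 2 with the replicate block with or without median-of-ratios scaling, 2 without replicate 3, and 0 to 2 when 1 library was left out. Over all genes, 1954 were downregulated, but 1121 without a filter, 1075 after median-of-ratios scaling, 1163 with voom, 3088 without replicate 3 and 345 to 2725 with 1 library left out. Upregulated were 321, but 184, 802, 723, 653 and 59 to 459 in the same order, and 1086 with the block and median-of-ratios scaling together. The ratio of summed TPM was 1.02 for replication-dependent histones, and 1.29 after median-of-ratios scaling. It was 0.690 without replicate 3 in both conditions and 0.533 to 1.32 with 1 library left out. For replacement histones it was 0.969, and 1.27 after that scaling. It was 0.850 without replicate 3 in both conditions and 0.823 to 1.075 with 1 library left out. The causes were not tested.

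None of the genes whose sign turned had been called. With median-of-ratios scaling, also with the block, the log2 fold change became 0.11 for Cd3e, 0.26 for Gata3, 0.31 for H2aj, 0.10 for H2az1, 0.025 for H4c18, 0.33 for Nasp and 0.16 for Rpph1. With voom it became 0.089, 0.25, 0.29, 0.081 and 0.32 for Cd3e, Gata3, H2aj, H2az1 and Nasp. With a pseudocount of 0.1 it became -0.033 for Cd68, -0.11 for H3c10 and -0.37 for H3c8. Without replicate 3 in both conditions it became -0.20 for Cd68, 0.069 for Gata3, 0.0089 for H2aj, -0.39 for H3c10, -0.31 for H3c8, -0.0056 for Npat and 0.50 for Rpph1. With 1 library left out the ranges that crossed 0 were -0.45 to 0.46 for Cd68, -0.33 to 0.14 for Gata3, -0.59 to 0.15 for H2ac19, -0.36 to 0.19 for H2aj, -0.61 to 0.14 for H2bc14, -0.73 to 0.59 for H3c10, -0.49 to 0.58 for H3c8, -0.89 to 0.13 for H4c18, -2.03 to 0.027 for H4c9, -1.43 to 0.13 for Hba-a1, -0.22 to 0.63 for Lck, -0.66 to 1.33 for Lyz2, -0.72 to 0.40 for Nasp, -0.18 to 0.81 for Rn7sk and -0.91 to 0.44 for Rpph1. Among the alternative values of named genes, 538 kept direction and side of the threshold, 39 passed it newly, 64 lost it and 61 changed sign.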
